A study of Homo sapiens with 6 samples.

Results

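The miR-378 family was examined in small RNA libraries of HEK293T cells, a human embryonic kidney line, after knockdown (KD) of the ribosomal protein RPL24. The family was taken as the 10 listed names hsa-miR-378a-3p, hsa-miR-378a-5p, hsa-miR-378b, hsa-miR-378c, hsa-miR-378d, hsa-miR-378e, hsa-miR-378f, hsa-miR-378g, hsa-miR-378h and hsa-miR-378i (hsa, for human, is left out from here on), matched by name among 2588 miR names in the count table. All 10 were found. The 9 names other than miR-378a-5p are called the 3p members here, because they resemble the 3p arm of the miR-378a hairpin, and miR-378a-5p is the opposite arm of that same hairpin. The 3 RPL24 KD libraries came from cells given 50 nM of siPOOLs (pools of many siRNAs) against RPL24, and the 3 negative control (NC) libraries from cells given non-targeting siPOOLs at that dose. Both groups were harvested 72 h later by their titles (the time field reads day 72). The titles of the NC samples begin with NC but also end in RPL24 KD, and the groups were taken from the treatment field. The labels of both groups describe a second transfection, of miR-608 plasmids, at 48 h. The paper, however, states that its sequencing did not detect miR-608, so whether these cells received the plasmids is uncertain. Libraries 1 and 2 of each group bear the numbers of the labels, and the remaining library of each group, whose number is in no label, is called unnumbered. The labels do not say whether the libraries came from separate cultures, so p-values measure the spread between these libraries, which may be technical. The amount of RPL24 mRNA is not measured by small RNA libraries and the KD was not checked here.

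MiRs are cut from a hairpin precursor, first by DROSHA in the nucleus and then by Dicer in the cytoplasm, and each arm of the hairpin can yield a mature miR that guides silencing of mRNAs matching its seed, bases 2 to 8. The miR-378a hairpin lies within PPARGC1B, the gene of the transcriptional coactivator PGC-1β, and its 3p arm is the usual guide strand. MiR-378a-3p is known for its abundance in muscle, heart and fat and for its part in the control of energy metabolism. The remaining names are paralogs scattered over the genome, many of them differing from miR-378a-3p by a single base or by their ends.

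Mature sequences of 8 of the 10 members were found in RefSeq (GRCh38.p14) and are shown because the members can be told apart only by these few bases. The seed is in capitals.
miR-378a-3p: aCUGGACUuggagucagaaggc
miR-378i: aCUGGACUaggagucagaagg
miR-378c: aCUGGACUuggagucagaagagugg
miR-378f: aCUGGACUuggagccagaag
miR-378b: aCUGGACUuggaggcagaa
miR-378h: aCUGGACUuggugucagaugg
miR-378g: aCUGGGCUuggagucagaag
miR-378a-5p: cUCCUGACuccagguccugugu

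Counted from the 5′ end, with the base of miR-378a-3p first, miR-378i differed from miR-378a-3p by the single substitution U9A, next to the seed. MiR-378c was identical to it over the first 20 bases, carried G21A and C22G and ran on to a length of 25 bases. MiR-378f carried U14C and miR-378b U14G, miR-378h carried A12U and A19U, and miR-378g carried A6G, which lies inside the seed. The seed CUGGACU was thus shared by 6 members, while miR-378g and miR-378a-5p each had a seed that no other miR of the table with a known sequence (2281 names) shared. MiR-378d and miR-378e had no mature entry. For miR-378e the RefSeq hairpin ends in the following 22 bases, whose first 17, in capitals, equal the start of miR-378a-3p.
MIR378E hairpin end: ACUGGACUUGGAGUCAGgacau

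A read of up to 20 bases that starts at base 1 would match miR-378a-3p and miR-378c equally, whereas a read of miR-378i carries its own base at position 9. How reads that fit several names were counted is not stated in the sources used here, so the division of counts between these names is uncertain, and it was examined by summing the members as well.

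Hairpin positions were taken from GENCODE 29 on GRCh38. MIR378A (chromosome 5, from 149732825 to 149732890, plus strand) is in intron 1 of 4 PPARGC1B transcripts. MIR378I (chromosome 22, from 41923222 to 41923297, minus strand) is within an exon of 1 transcript of TNFRSF13C, which encodes the BAFF receptor of B cells. MIR378C (chromosome 10, from 130962588 to 130962668, minus strand) is spanned by no other annotated transcript. MIR378E (chromosome 5, from 170028488 to 170028566, plus strand) is intronic in 5 transcripts of DOCK2, a Rac activator of blood cells. Of the remaining hairpin genes, MIR378G is intronic in 12 transcripts of SLC44A3-AS1 on its own strand and MIR378D1, one of the genes of miR-378d, in 2 transcripts of C4orf50. MIR378D2, another gene of miR-378d, is within an exon of the noncoding gene AC084346.2 on its own strand. It also lies opposite to an intron of PDP1. MIR378B and MIR378H lie opposite to introns of ATP2B2 and FAXDC2, and MIR378F lies outside other transcripts. The names that differ by single bases thus belong to separate places in the genome.

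Total counts were 398721 to 611745 per library, and the 3 counts taken as the smallest detectable amount equalled 4.90 to 7.52 CPM (counts scaled to a library total of 1000000). This floor covers counting error only. Within NC the libraries differed from each other more than within RPL24 KD, with chi-square values, divided by their degrees of freedom, of 11.7 to 22.1 for NC pairs against 2.49 to 2.87 for KD pairs. The 7 HEK293T markers were all present, with a summed level of 264610 to 272987 CPM after KD and 245451 to 265847 CPM in NC. Liver and blood markers were at 10.0 CPM or less in every library (1 liver and 6 blood miRs, of which miR-223-3p and miR-150-5p were at 0). Of 7 muscle markers, 3 were at 0 in every library (miR-206, miR-208a-3p and miR-208b-3p) and the summed level was 258 to 281 CPM after RPL24 KD and at least 337 CPM in NC. This sum was almost wholly miR-1-3p, with 256 ± 13.0 CPM after KD and 337 ± 24.7 CPM in NC (SD, n = 3 each), a log2 difference of -0.40 that was not DE (edgeR adjusted p = 0.0557), and its part in the results was not tested. Libraries of whole cultures cannot tell fewer cells that make a miR from less of it in each cell.

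Levels are given as normalised counts (CPM of the library total scaled by TMM, edgeR's trimmed-mean factor). They are counts per mature miR, from molecules of similar length (19 to 25 bases where the sequence is known). How evenly library preparation captured different miRs was not measured, so orders and ratios between miRs hold for counts, not for amounts. MiR-378a-3p dominated the family, with 29652 ± 1862 CPM (SD, n = 3) in NC, and was number 6, 7 or 8 by count among all miRs in the NC libraries and number 5 in each RPL24 KD library. MiR-378i followed at 2478 ± 221 CPM (SD, n = 3) in NC. MiR-378d at 814 ± 21.7 CPM and miR-378c at 674 ± 52.2 CPM (SD, n = 3 each) came next, then miR-378a-5p at 156 ± 4.59 CPM, miR-378f at 115 ± 10.7 CPM and miR-378g at 101 ± 15.2 CPM, with miR-378e lowest of those tested at 15.4 ± 5.19 CPM (SD, n = 3 each). In this order miR-378f and miR-378g overlapped between NC libraries, and the other neighbours did not. After RPL24 KD the order of miR-378c and miR-378d was turned in their means, at 929 ± 122 CPM and 899 ± 43.5 CPM (SD, n = 3 each), with ranges that overlapped. The arms of the miR-378a hairpin stood far apart, with 5.27 ± 0.447 counts of miR-378a-5p per 1000 counts of miR-378a-3p in NC (SD, n = 3).

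**Figure D1:**
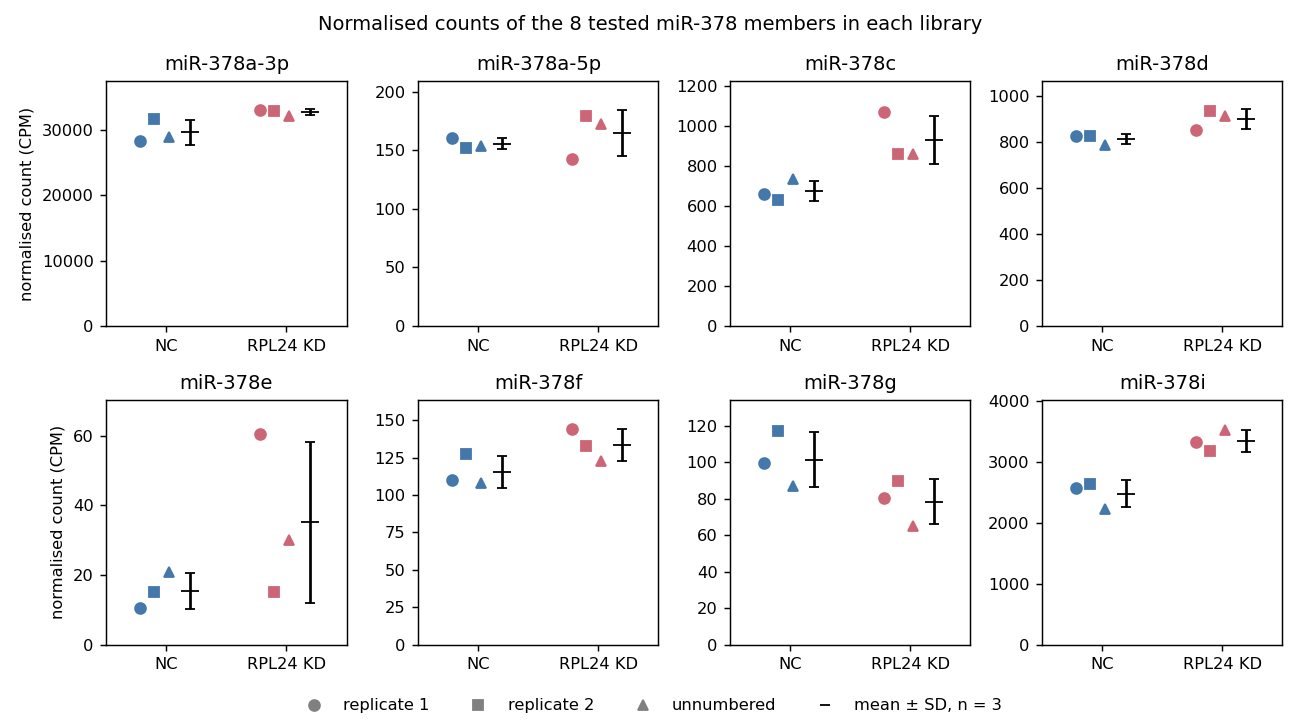
Normalised counts (CPM, vertical axis from 0) of the 8 tested members in the 3 NC and the 3 RPL24 KD libraries, one point per library with its shape giving the replicate number, and the mean ± SD beside them. MiR-378i and miR-378c lie higher in every RPL24 KD library than in any NC library, miR-378a-3p and miR-378d are separated by less, and in miR-378e one RPL24 KD library at 60.3 CPM stands above the rest.

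To ask which members changed when RPL24 was depleted, a quasi-likelihood model (edgeR) was fitted to the whole table and p-values were adjusted by the Benjamini-Hochberg method. A miR is called differentially expressed (DE) where its adjusted p is under 0.05. Over 360 tested miRs 18 (5.00%) were DE, of which 12 (3.33%) were higher after KD and 6 (1.67%) lower. Scaling by total counts in place of TMM gave 10 higher and 18 lower and lowered the median log2 fold change of all tested miRs to -0.058, with the same 2 members DE. Of the 10 members, 8 passed the filter on low counts and were tested. MiR-378i and miR-378c were DE, both higher after KD, and none of the tested members was DE in the lower direction. These 2 of 8 tested members stand beside the 3.33% of all tested miRs, and the members may share reads and are not independent. The groups did not overlap in 4 of the 8 (miR-378a-3p, miR-378c, miR-378d and miR-378i), KD being the higher group in each, against 27.5% of all tested miRs in either direction and 14.7% with KD higher. An unadjusted p under 0.05 was found in 4 of the 8 (miR-378a-3p, miR-378c, miR-378e and miR-378i), against 23.6% of all tested miRs. The log2 fold change was above 0 in 7 of the 8, against 47.2% of all tested miRs, and below 0 in miR-378g. The median log2 fold change of the tested members was 0.19, beside -0.0084 over all tested miRs.

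MiR-378i, the second most abundant member, had 3330, 3171 and 3527 CPM in RPL24 KD replicates 1 and 2 and the unnumbered KD library, from 1821, 1906 and 1408 counts. In NC replicates 1 and 2 and the unnumbered NC library it had 2571, 2637 and 2226 CPM, from 1470, 1055 and 1174 counts. The lowest KD library lay above the highest NC library. The mean was 3343 ± 178 CPM after KD and 2478 ± 221 CPM in NC (SD, n = 3 each), a ratio of 1.35 or 0.43 on the log2 scale (standard error, SE, 0.0793, edgeR adjusted p = 0.00794). In the 6 fits that each omitted 1 library and kept the same tested miRs, its log2 fold change stayed between 0.34 and 0.48, and the call was lost without RPL24 KD replicate 1 (log2 fold change 0.43, edgeR adjusted p = 0.0650), a fit in which 0 miRs of the whole table were DE by edgeR and 56 had an unadjusted p under 0.05. With the filter repeated on the 5 remaining libraries, a setting chosen after seeing the data, 7 miRs were DE in that fit, among them miR-378i (edgeR adjusted p = 0.0383).

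MiR-378c had 1070, 859 and 859 CPM in RPL24 KD replicates 1 and 2 and the unnumbered KD library, from 343 to 585 counts. In NC replicates 1 and 2 and the unnumbered NC library it had 661, 630 and 732 CPM, from 252 to 386 counts. The groups did not overlap, and RPL24 KD replicate 1 stood above the others of its group. The mean was 929 ± 122 CPM after KD and 674 ± 52.2 CPM in NC (SD, n = 3 each), a ratio of 1.38 and a log2 fold change of 0.46 (SE 0.106, edgeR adjusted p = 0.0261). Without RPL24 KD replicate 1 the log2 fold change was 0.35 and the call was lost (edgeR adjusted p = 0.116). With the filter repeated it was also lost without RPL24 KD replicate 2 (0.53, edgeR adjusted p = 0.0558).

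MiR-378a-3p, the guide arm of the PPARGC1B hairpin, differed by less. It had 33149, 32910 and 32248 CPM in RPL24 KD replicates 1 and 2 and the unnumbered KD library. In NC it had 28285 CPM in replicate 1, 31772 CPM in replicate 2 and 28898 CPM in the unnumbered library. The KD libraries lay close together and above NC, with NC replicate 2 near them. The ratio of the means was 1.11 and the log2 fold change 0.14 (SE 0.0540), which was not DE (edgeR adjusted p = 0.131). Without NC replicate 2 the log2 fold change was 0.20 (edgeR adjusted p = 0.0409), and in the other 5 fits that left out a library it was not DE. Its lowest count was 12710, so that counting error is small beside the spread between the NC libraries (SD 1862 CPM, n = 3). The spread between the KD libraries was smaller (SD 467 CPM, n = 3).

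Its opposite arm, miR-378a-5p, had 143, 180 and 173 CPM in RPL24 KD replicates 1 and 2 and the unnumbered KD library, and 161, 152 and 154 CPM in those of NC. The KD range enclosed the NC range, and the log2 fold change was 0.080 (SE 0.140, edgeR adjusted p = 0.777). Omitting 1 library moved it between 0.00050 (without RPL24 KD replicate 2) and 0.18 (without RPL24 KD replicate 1), with no DE call. It was 0.046 without the unnumbered KD library and 0.052 without the unnumbered NC library. At a mean of 81.5 counts the SE was about as large as the whole log2 fold change of miR-378a-3p, so that a difference of that size was not detectable in this arm.

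MiR-378d had 850, 933 and 914 CPM after KD and 827, 825 and 789 CPM in NC, in the same order of libraries. The groups did not overlap but were near each other, and the log2 fold change of 0.14 (SE 0.0835) was not DE (edgeR adjusted p = 0.337). MiR-378f, which has the seed of miR-378a-3p, ranged from 123 to 144 CPM after KD and from 108 to 127 CPM in NC, with overlap and a log2 fold change of 0.23 (SE 0.150, edgeR adjusted p = 0.395).

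MiR-378e had 33, 9 and 12 counts in RPL24 KD replicates 1 and 2 and the unnumbered KD library and 6, 6 and 11 counts in those of NC. RPL24 KD replicate 1 stood above all others at 60.3 CPM and the unnumbered KD library, at 30.1 CPM, above the highest NC library at 20.9 CPM, whereas RPL24 KD replicate 2, at 15.0 CPM, lay within the NC range. The log2 fold change of 1.17 (SE 0.501, edgeR adjusted p = 0.185) was the largest of the tested members and not DE. It was 0.45 without RPL24 KD replicate 1 (edgeR adjusted p = 0.719) and 1.61 without RPL24 KD replicate 2 (edgeR adjusted p = 0.0592). Without a filter on low counts, over all 6 libraries, miR-378e was DE (edgeR adjusted p = 0.0465).

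MiR-378g, the member whose seed carries A6G, went the other way in its values. It had 80.5, 89.9 and 65.1 CPM in RPL24 KD replicates 1 and 2 and the unnumbered KD library and 99.7, 117 and 87.2 CPM in those of NC. RPL24 KD replicate 2 overlapped the unnumbered NC library, and the log2 fold change of -0.33 (SE 0.185) was not DE (edgeR adjusted p = 0.331). MiR-378b, with 1 to 4 counts per library, and miR-378h, with 0 to 4, were below the filter and near the floor of 3 counts, so that no difference was detectable at this depth.

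**Figure D2:**
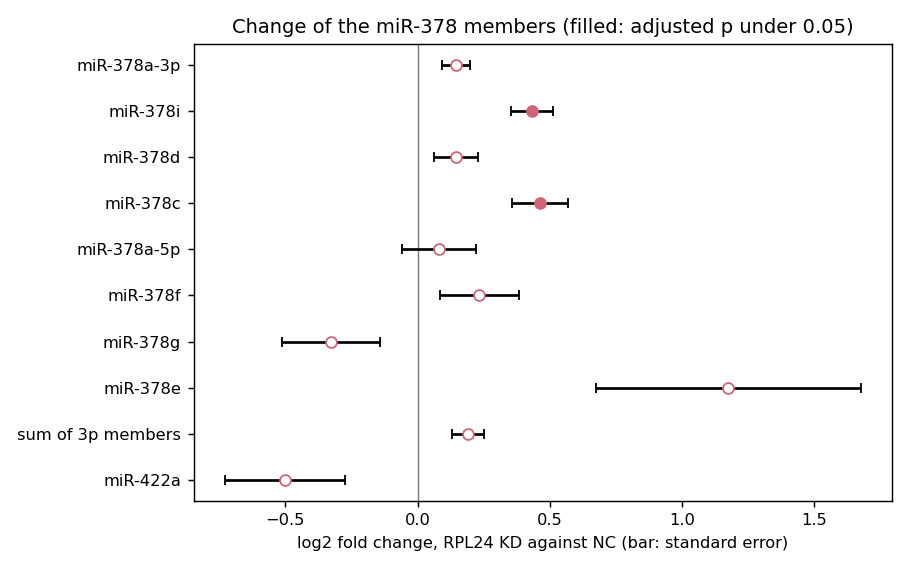
Log2 fold change, RPL24 KD over NC (horizontal axis, with its standard error) for the 8 tested members in order of abundance, for the sum of the 3p members and for miR-422a. Filled points, DE at an adjusted p under 0.05, are miR-378i at 0.43 and miR-378c at 0.46, while miR-378g and miR-422a lie below 0 without being DE.

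Because the division of reads between the near-identical names is uncertain, the 9 3p members were summed in each library and the sum was fitted with the rest of the table (354 features tested). The sum was 38955, 38442 and 37907 CPM in RPL24 KD replicates 1 and 2 and the unnumbered KD library and 33286, 35880 and 31790 CPM in those of NC. All KD libraries lay above all NC libraries. The mean was 38435 ± 524 CPM against 33652 ± 2069 CPM (SD, n = 3 each), a log2 fold change of 0.19 (SE 0.0606) that was not DE (edgeR adjusted p = 0.0826). It was 0.14 without miR-378i (edgeR adjusted p = 0.129) and 0.36 without miR-378a-3p, where it was DE (edgeR adjusted p = 0.00655). TMM was computed anew for each sum, so these values differ by scaling as well as by the members left out. With TMM taken from the miRs outside the family, the sum of all 9 had 0.18 and was not DE (edgeR adjusted p = 0.0668). The sum without miR-378i and miR-378a-3p, chosen after seeing the data, had a log2 fold change of 0.29 and was DE (edgeR adjusted p = 0.0374). That sum still held miR-378c, itself DE, and no sum without miR-378c was fitted. Leaving out 1 library, the sum of the 3p members was DE without NC replicate 2 (0.24, edgeR adjusted p = 0.0420) and without the unnumbered NC library (0.15, edgeR adjusted p = 0.0470). As a share of all counts without TMM, the sum took 3.75% ± 0.0411 after KD and 3.43% ± 0.172 in NC (SD, n = 3 each).

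**Figure D3:**
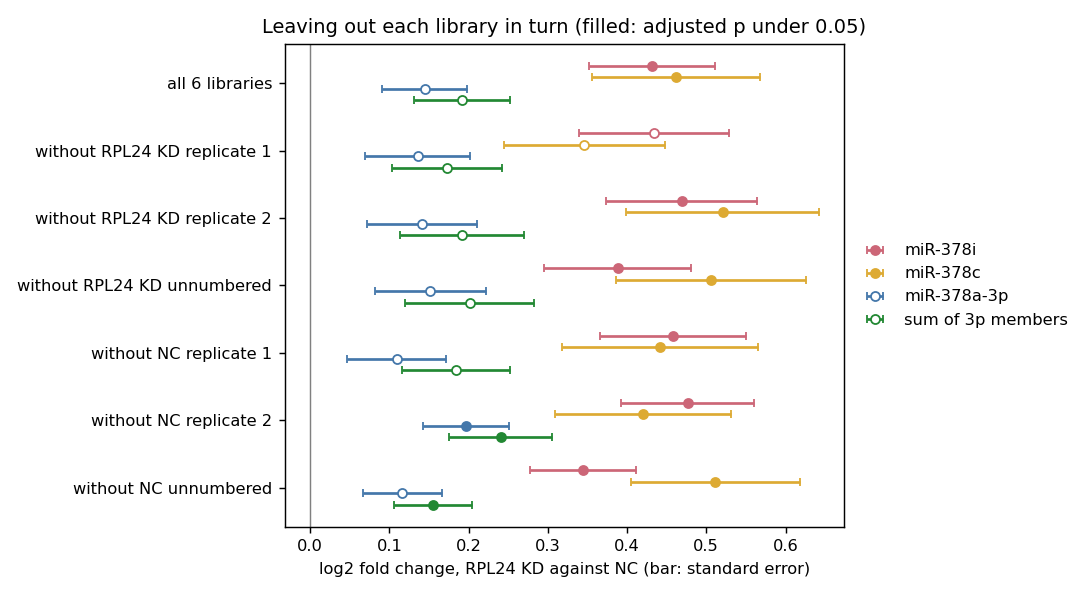
Log2 fold change, RPL24 KD over NC (horizontal axis, with its standard error) for miR-378i, miR-378c, miR-378a-3p and the sum of the 3p members, with all libraries and with each library left out over the same tested miRs. Filled points are DE. MiR-378i stays between 0.34 and 0.48 and miR-378c between 0.35 and 0.52, both open without RPL24 KD replicate 1.

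To see whether the members moved relative to each other, each of the 7 other members whose mean count was 10 or more was set against miR-378a-3p of the same library, a ratio that no library scaling affects. MiR-378i had 100, 96.4 and 109 counts per 1000 counts of miR-378a-3p in RPL24 KD replicates 1 and 2 and the unnumbered KD library, and 90.9, 83.0 and 77.0 in those of NC. MiR-378i was thus higher relative to miR-378a-3p in 3 of 3 KD libraries. The difference of the log2 ratios was 0.29 (SE 0.0876, two-sided exact permutation p = 0.1, adjusted p = 0.233 over the 7 pairs). With 3 libraries against 3, an exact permutation test cannot go below 0.1, so no pair could pass the threshold.

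MiR-378c had 32.3, 26.1 and 26.6 counts per 1000 counts of miR-378a-3p after KD and 23.4, 19.8 and 25.3 in NC. These groups also did not overlap, with a difference of the log2 ratios of 0.31 (SE 0.142, exact permutation p = 0.1, adjusted p = 0.233). MiR-378g was the reverse, at 2.43, 2.73 and 2.02 per 1000 after KD and 3.53, 3.70 and 3.02 in NC, a difference of -0.51 (SE 0.151, exact permutation p = 0.1, adjusted p = 0.233). For miR-378d the means were 27.5 ± 1.56 per 1000 after KD and 27.5 ± 1.65 in NC (SD, n = 3 each), a difference of -0.0025 with an SE of 0.0693 (exact permutation p = 1). The ratios of miR-378f, miR-378a-5p and miR-378e to miR-378a-3p overlapped between the groups, with exact permutation p-values of 0.4, 0.7 and 0.3. The proportion of miR-378c to miR-378i, the members with DE calls, differed between the groups by less than its SD. It was 279 ± 39.4 counts of miR-378c per 1000 of miR-378i after KD and 275 ± 47.5 in NC (SD, n = 3 each). Single libraries ranged from 239 to 329. This pair was picked because both were called higher, so like group means follow in part from that choice.

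Within the counts of the 3p members, miR-378a-3p took 87.6% ± 0.628 in NC and 85.8% ± 0.487 after KD (SD, n = 3 each). The share of miR-378i was 7.32% ± 0.562 in NC and 8.75% ± 0.525 after KD (SD, n = 3 each). The highest NC library, replicate 1, had 7.89% (95% Wilson interval 7.52% to 8.29%) and the lowest KD library, replicate 2, had 8.32% (7.97% to 8.68%), intervals that overlap and that cover counting error only. The shares of miR-378c were 2.00% ± 0.243 in NC and 2.43% ± 0.290 after KD (SD, n = 3 each).

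Outside the family, the only listed miR found with the seed of miR-378a-3p was miR-422a, which carries G10A and A12G relative to miR-378a-3p.
miR-422a: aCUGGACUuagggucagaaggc
It had 64.0, 88.2 and 57.6 CPM in RPL24 KD replicates 1 and 2 and the unnumbered KD library and 84.0, 137 and 91.0 CPM in those of NC. RPL24 KD replicate 2 overlapped NC, and the log2 fold change of -0.50 (SE 0.227) was not DE (edgeR adjusted p = 0.203). Omitting NC replicate 2 gave -0.29 and omitting RPL24 KD replicate 2 gave -0.72, neither of them DE. MiR-378j, a further paralog that is not among the 10 names, had 1 count in each of 2 libraries.

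Other miRs, most of them of metabolic or muscle genes, were taken from a list of 12. It held the arms of miR-33a and miR-33b in the introns of the sterol regulators SREBF2 and SREBF1. MiR-103a-3p and miR-107 in introns of pantothenate kinase genes and the miR-208 and miR-499a miRs of myosin genes were listed too. So were miR-26a-5p and miR-26b-5p in introns of CTDSP phosphatase genes, which are not metabolic or muscle genes. Of the 12, 4 passed the filter, miR-26a-5p and miR-26b-5p among them, and 0 were DE by edgeR. The median log2 fold change of the 4 was -0.18, with 1 above 0 and 3 below, beside -0.0084 over all tested miRs. MiR-103a-3p had 14055 ± 218 CPM after KD and 16618 ± 1821 CPM in NC (SD, n = 3 each), a log2 fold change of -0.24 (edgeR adjusted p = 0.0570), and miR-26b-5p had -0.19 (edgeR adjusted p = 0.128). The paper, by contrast, lists miR-103a-3p as DE and lower after KD, and reports a decrease by RT-qPCR too. MiR-107 and miR-26a-5p overlapped between the groups. Of the myosin miRs, miR-499a-5p had a mean of 4.83 counts and miR-499a-3p of 0.17, and miR-208a-3p and miR-208b-3p were at 0. MiR-33b-5p was at 0 in every library, and the other arms of miR-33a and miR-33b had means of 1.67 to 6.33 counts.

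The miRs whose levels over the 6 libraries were most like the summed 3p members, by the root-mean-square difference of centred log2 CPM among 162 tested miRs whose mean count was 100 or more, were miR-30e-3p (0.0338), miR-10b-5p (0.0482) and miR-196a-5p (0.0527), where the median was 0.151. None of the 3 was DE by edgeR (adjusted p = 0.113, 0.0652 and 0.185), although the paper lists miR-10b-5p as DE and higher after KD. MiR-10b-5p and miR-196a-5p are also among the 7 HEK293T markers. MiR-30e-3p had 2979, 2807 and 2811 CPM in RPL24 KD replicates 1 and 2 and the unnumbered KD library and 2494, 2602 and 2417 CPM in those of NC. NC replicate 2 was the highest of its group, as in the summed family, a likeness that follows from how the miR was picked.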

How the data were processed

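Small RNA libraries came from 3 RPL24 KD and 3 NC samples. The authors checked read quality with FastQC (0.11.9 per the labels), used Flexbar for trimming and filtering and miRExpress 2.1.4 for alignment to miRBase 21, and deposited the raw counts of each mature miR. The paper also reports a DESeq2 comparison of RPL24 KD with NC, in which miR-378i and miR-378c were DE and higher after KD. Columns were matched to the labels by name. The number of the third column of each group is in no label, and 0 columns of per-sample counts were left out.

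The deposited counts were tested with edgeR 4.0.16 in R 4.3.3 (quasi-likelihood, TMM, filterByExpr with a minimum count of 10, no block, Benjamini-Hochberg adjustment over all tested miRs). Standard errors are those implied by the F statistic. DESeq2 1.42.0 and limma 3.58.1 were alternatives. Ratios of members used a pseudocount of 0.5 and exact permutation tests over libraries (SciPy 1.17.1). The edgeR and DESeq2 tests were tried on simulated data, and limma and the permutation tests were not. Named miRs are the members, miRs with their seed, DE miRs of the metabolic list and the 3 miRs most like the summed members, and further miRs of the metabolic and marker lists were picked for mention with their values known. The members and lists were chosen with earlier results of these data known.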

Additional observations from a re-analysis of the deposited data

How the results depend on the processing

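MiR-378i and miR-378c were DE in each alternative that kept all 6 libraries and each in 5 of 6 fits on 5 libraries (not without RPL24 KD replicate 1). With the filter repeated on those 5 libraries, a setting chosen after seeing the data, miR-378i was DE in 6 of 6 and miR-378c in 4, the number of DE miRs was 4 to 29, and the log2 fold change of the summed 3p members was 0.15 to 0.22. The 2 DE members became 4 with the replicate block, which uses the 4 numbered libraries (miR-378a-3p and miR-378e were added). Without one library they numbered 0 to 3. The deviations of same-numbered libraries from their group means correlated across 360 miRs at -0.141 and 0.118. Pairing by number was thus not seen, but counting error can hide it and this check cannot exclude it. The same 4 libraries without a block, a setting chosen after seeing the data, gave 2. The number of DE miRs, 18, became 34 with robust edgeR, 28 with total counts (10 higher and 18 lower), 31 without a filter, 57 with the replicate block and 0 to 36 when one library was left out (0 without RPL24 KD replicate 1, 8 without RPL24 KD replicate 2 and 36 without the unnumbered NC library).

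The log2 fold change of the summed 3p members, 0.19, was DE at 0.20 with DESeq2 under default filtering (adjusted p = 0.0448), at 0.16 with the replicate block (adjusted p = 0.00546, edgeR), at 0.36 without miR-378a-3p and at 0.29 without miR-378a-3p and miR-378i, and ranged from 0.15 to 0.24 when one library was left out. It was lowest with total counts, 0.13 (adjusted p = 0.148, edgeR). The sums without miR-378a-3p still held miR-378c, itself DE. Without one library the difference in the log2 ratio to miR-378a-3p ranged from -0.13 to 0.041 for miR-378a-5p and from -0.043 to 0.046 for miR-378d. It was 0.041 and 0.046 without RPL24 KD replicate 1, and 0.043 for miR-378d without NC replicate 1. The cause was not tested. Depth limits miR-378b, miR-378e and miR-378h.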
